A study of Oreochromis niloticus with 12 samples.

Results

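The transcripts cyp19a1b, pgr and hsd3b1 were followed in pituitaries and brains of Nile tilapia (Oreochromis niloticus), a cichlid fish whose males form dominance hierarchies. Genes were chosen by name: pgr is named in both tables, and the rows LOC100534396 and LOC100534568 carry the RefSeq symbols cyp19a1b and hsd3b1. All 3 were found in each table, among 714 genes for the pituitary and 27115 for the brain. Messenger RNA was sequenced in 4 groups of 3 libraries, namely pituitaries of dominant males, pituitaries of subordinate males, brains of dominant males and brains of subordinate males. All fish were mature males of the captive-bred Lake Manzala strain, housed as 2 males with 4 to 6 females per tank, and tissues of males with a stable rank were taken after 14 days. The labels give neither the age of the fish nor whether numbered samples came from separate tanks. They also do not say whether a pituitary and a brain of the same number came from the same fish. The p-values below therefore measure the spread between these samples.

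These genes lie at successive points of steroid signalling. The enzyme encoded by hsd3b1, a 3-beta-hydroxysteroid dehydrogenase, turns pregnenolone into progesterone and makes the precursors of androgens. Aromatase, encoded in the teleost brain by cyp19a1b, turns androgens into estrogens, and in fish it is made mainly by radial glial cells. The pgr gene encodes the nuclear progesterone receptor, a transcription factor that binds progestins. A second aromatase gene, cyp19a1a, is the one known from the ovary.

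The tables differ in scope. Brain libraries held 23733115 to 26867631 reads over all genes. The pituitary table listed 714 genes, each with a p-value under 0.05 for dominant against subordinate males in the authors' deposited table, so the 1649554 to 7025630 reads in it are not library depths. The pituitary rows of all 3 genes are thus in the table because they differed, and their p-values there are favoured by that selection. Levels are normalised read counts, each table being normalised on its own, so a level in the pituitary cannot be set against a level in the brain. Libraries were made from whole tissue, in which fewer cells of a type and less RNA per cell cannot be told apart.

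In the pituitary all 3 transcripts averaged more reads in dominant than in subordinate males, and none of the differences passed the adjusted test. The log2 differences were 1.20 for pgr, 1.04 for cyp19a1b and 0.50 for hsd3b1. The order of pgr and cyp19a1b was not stable, at 0.77 for pgr and 1.04 for cyp19a1b after quantile normalisation and at 0.89 and 1.13 without dominant replicate 2. Differences are given as dominant minus subordinate on the scale of log2(normalised reads + 1), which understates the change of low genes, with a standard error (SE) and a 95% interval from limma. The Benjamini-Hochberg method was used to adjust limma's p-values over all genes tested in the tissue.

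The enzyme transcript hsd3b1 had 523, 1014 and 769 normalised reads in the pituitaries of dominant males 1, 2 and 3, against 479, 596 and 508 in those of subordinate males 1, 2 and 3. Dominant males 2 and 3 lay above every subordinate value, while dominant male 1 lay below subordinate male 2, so the groups overlapped. The means were 769 ± 245 in dominant and 528 ± 61.0 in subordinate pituitaries (SD, n = 3 each), a log2 difference of 0.50 ± 0.25 (SE) with an interval of 0.928-fold to 2.14-fold and a limma adjusted p of 0.106. The dominant libraries were the more spread, with a coefficient of variation of 31.9% against 11.6% in subordinate ones. Leaving out dominant replicate 2 gave a difference of 0.27, and leaving out dominant replicate 1 gave 0.75.

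Brain aromatase, cyp19a1b, had 2486, 3171 and 5943 normalised reads in dominant pituitaries 1, 2 and 3, and 1064, 2396 and 2106 in subordinate pituitaries 1, 2 and 3. All 3 dominant values lay above all 3 subordinate ones, but the lowest dominant value exceeded the highest subordinate one by only 90.7 reads. The means were 3867 ± 1830.4 in dominant and 1855 ± 700.2 in subordinate pituitaries (SD, n = 3 each). The log2 difference was 1.04 ± 0.42 (SE), with an interval of 0.06 to 2.03, or 1.04-fold to 4.08-fold, and a limma adjusted p of 0.0855. Leaving out dominant replicate 3 lowered it to 0.68, as did leaving out subordinate replicate 1.

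The receptor transcript pgr had 64.2, 178 and 132 normalised reads in dominant pituitaries 1, 2 and 3, against 47.9, 52.4 and 47.6 in subordinate pituitaries 1, 2 and 3. The subordinate values were close together, and the dominant ones ranged from just above them to far above them, with dominant male 2 highest. The means were 125 ± 57.4 in dominant and 49.3 ± 2.70 in subordinate pituitaries (SD, n = 3 each). The log2 difference was 1.20 ± 0.40 (SE), with an interval of 0.25 to 2.16, or 1.19-fold to 4.47-fold, and a limma adjusted p of 0.0855. Groups that do not overlap are common in this table, where they were found in 66% of the 714 genes (38.5% with dominant males higher), since the genes were selected for differing. A higher estimate in dominant males was seen in 52.1% of the table.

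**Figure D1:**
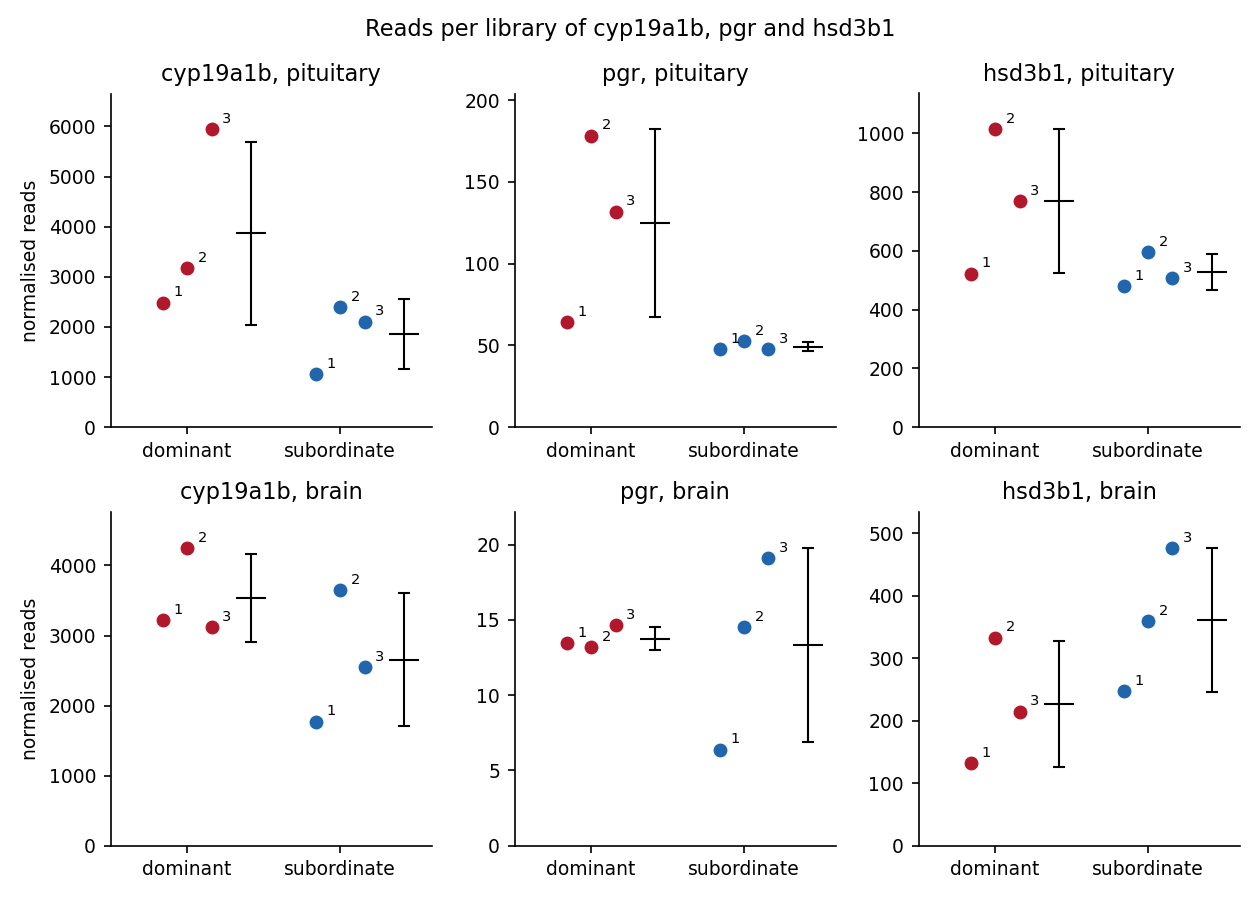
Normalised reads (vertical axes, starting at 0) of cyp19a1b, pgr and hsd3b1 in each pituitary library (upper row) and brain library (lower row) of dominant and subordinate males. Points are libraries with their replicate numbers, and black bars are means ± SD of 3 libraries; in the pituitary the dominant points of cyp19a1b and pgr lie above all subordinate points, and in the brain the groups overlap for all 3 genes.

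Read against the whole pituitary table, itself selected for differing genes, the differences were not extreme, which gives no rank among all pituitary transcripts. Of its 714 genes, 74 had a higher dominant minus subordinate difference than pgr, 94 a higher one than cyp19a1b and 307 a higher one than hsd3b1, and the median over the table was 0.37. An adjusted p under 0.05 by limma was reached by 6 genes (0.84%), all higher in dominant males, and none of the 3 transcripts was among them. At an unadjusted limma p under 0.05 there were 404 genes (56.6%, and 37% with dominant males higher). Among them were cyp19a1b and pgr but not hsd3b1, with unadjusted limma values of 0.0412 for cyp19a1b, 0.0206 for pgr and 0.0927 for hsd3b1. An exact two-sided permutation test of 3 against 3 libraries gave p = 0.1 for cyp19a1b and for pgr, the smallest it can give, and p = 0.2 for hsd3b1.

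The call depended on the model of the spread. DESeq2, run on the whole reads recovered from the normalised values, called 184 of the 714 genes (25.8%), among them pgr (adjusted p = 0.0289) and cyp19a1b (adjusted p = 0.0491), but not hsd3b1 (adjusted p = 0.0743). The quasi-likelihood test of edgeR on the same reads called 6 genes (0.84%) and none of the 3 transcripts, with adjusted p = 0.0817 for pgr and cyp19a1b and 0.0847 for hsd3b1. In the authors' deposited table the log2 fold changes were 1.35 for pgr (p = 0.00106), 1.06 for cyp19a1b (p = 0.00501) and 0.54 for hsd3b1 (p = 0.0395), without adjustment. Adjusting those p-values calls 100% of the table by construction. Every adjustment made here runs over the 714 listed genes only, so it corrects for fewer tests than the pituitary comparison had. The limma count was 0 when dominant replicate 3 was left out and 255 when subordinate replicate 1 was, and in neither case was any of the 3 transcripts called.

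Other transcripts of the pituitary table were read beside these. Of 19 listed pituitary hormones and factors the table held gh1, lhb, cga and fshb, with higher means of the gonadotropin subunits and a lower mean of growth hormone in dominant males, none called. Their summed reads were 1522814 to 2568235 in dominant and 1476846 to 5884122 in subordinate libraries. Growth hormone alone took 49.6% to 58.7% of the table's normalised reads in dominant libraries and 61.8% to 84.2% in subordinate ones. Of 25 markers of blood, vessels, matrix, microglia, myelin and neurons the table held alas2 and slc4a1a of red cells and mpz of myelin, with a summed 412 to 729 reads in dominant and 220 to 373 in subordinate libraries. Of 31 radial glia markers it held gja1 alone, at 637 to 1008 reads in dominant and 407 to 650 in subordinate libraries. Of 32 markers of the preoptic area, hypothalamus and telencephalon it held oxt and pmch, summing to 73.7 to 149 reads in dominant and 16.8 to 168 in subordinate libraries. These 2 genes went opposite ways. The oxt reads were 56.8, 138 and 66.9 in dominant and 3.69, 26.2 and 13.1 in subordinate pituitaries (log2 difference 2.75, limma adjusted p = 0.0855). The pmch reads were 16.8, 11.1 and 14.8 in dominant and 165, 23.7 and 3.73 in subordinate ones (log2 difference -0.83). Of 16 gonad or interrenal markers the table held 0. No listed marker held by the table was at 0 in all libraries, and the part of these cell types in the differences of cyp19a1b, pgr and hsd3b1 was not tested.

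In the brain the same 3 transcripts did not follow one direction. The mean of cyp19a1b was higher in dominant males, that of hsd3b1 was lower, and that of pgr was nearly the same, and the groups overlapped for all 3. None passed, against a background of 6 called genes among 21743 tested (0.0276%), all higher in dominant males. A higher estimate in dominant males was seen in 48.8% of tested brain genes. Dropping dominant replicates 1, 2 and 3 in turn left 2, 3 and 1 called genes, and dropping subordinate replicates 1, 2 and 3 left 15, 3 and 3.

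In the brain hsd3b1 had 133, 333 and 215 normalised reads in dominant males 1, 2 and 3, against 247, 359 and 477 in subordinate males 1, 2 and 3. The highest values were those of subordinate males 3 and 2, and the lowest was that of dominant male 1. The means were 227 ± 101 in dominant and 361 ± 115 in subordinate brains (SD, n = 3 each), a log2 difference of -0.72 ± 0.37 (SE) with an interval of -1.59 to 0.16 and a limma adjusted p of 0.934. A larger absolute difference was seen in 4.50% of the tested brain genes. The difference was -0.38 without dominant replicate 1 and -1.04 without dominant replicate 2.

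Brain levels of cyp19a1b were 3221, 4253 and 3117 normalised reads in dominant males 1, 2 and 3, against 1769.5, 3649.6 and 2548 in subordinate males 1, 2 and 3. Subordinate male 2 lay above dominant males 1 and 3, and subordinate male 1 was the lowest of all. The means were 3530.4 ± 628 in dominant and 2656 ± 945 in subordinate brains (SD, n = 3 each), with a log2 difference of 0.46 ± 0.26 (SE), an interval of -0.16 to 1.07 and a limma adjusted p of 0.934. That interval reaches from a 0.897-fold to a 2.11-fold ratio, a range that includes the 2.06-fold ratio of the pituitary. Without subordinate replicate 1 the difference was 0.20, and without subordinate replicate 2 it was 0.72.

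The receptor pgr was scarce in whole brain. It had 13.5, 13.2 and 14.7 normalised reads in dominant males 1, 2 and 3 and 6.37, 14.5 and 19.1 in subordinate males 1, 2 and 3. The subordinate group held both the lowest and the highest value. These values correspond to 13, 14 and 14 sequenced reads in dominant and 7, 14 and 19 in subordinate brains, and counting error alone gives 95% Poisson intervals of 2.81 to 14.4 around 7 reads and 11.4 to 29.7 around 19 reads. The log2 difference was 0.16 ± 0.45 (SE), with an interval of -0.91 to 1.23 and a limma adjusted p of 0.971, and it was -0.26 without subordinate replicate 1.

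The gonadal aromatase cyp19a1a was nearly absent from the brain libraries, with 1, 1 and 4 reads in dominant and 3, 0 and 1 in subordinate males. It was under the minimum of 10 mean normalised reads and was not tested, and the pituitary table does not list it. No other row of either table carried the symbol cyp19a1b, pgr or hsd3b1.

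**Figure D2:**
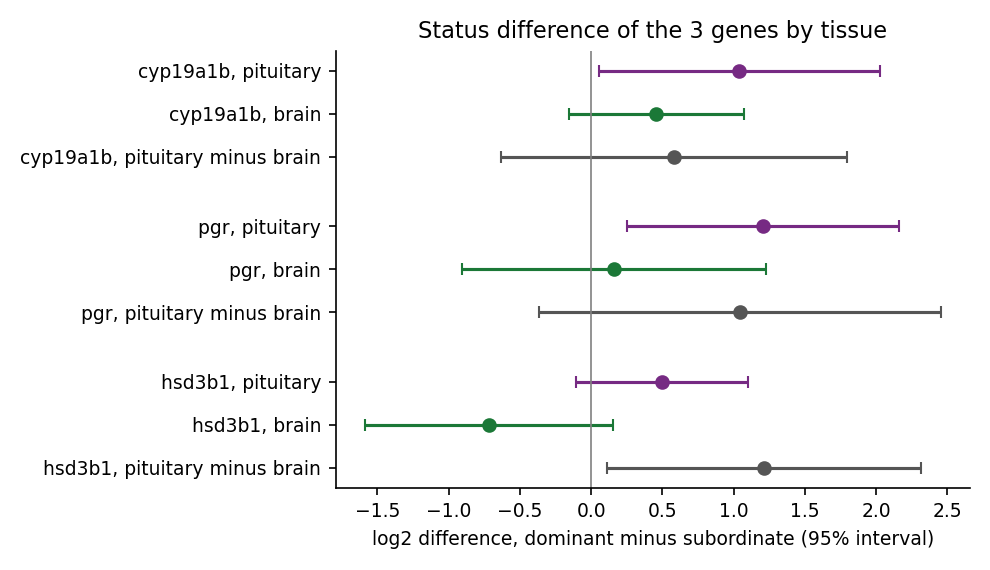
Log2 difference of dominant minus subordinate males (horizontal axis, points with 95% limma intervals) for each gene in the pituitary and in the brain, and the pituitary difference minus the brain difference. The intervals of cyp19a1b and pgr in the pituitary lie above 0, those of all 3 genes in the brain include 0, and of the differences between tissues that of hsd3b1 excludes 0 before adjustment.

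Whether the status difference itself differed between the tissues was tested as the pituitary difference minus the brain difference in one limma fit over the 685 genes present in both tables with a mean of at least 10 reads. For hsd3b1 the difference was 0.50 in the pituitary and -0.72 in the brain. Its gap of 1.21 ± 0.50 (SE) had an interval of 0.11 to 2.31 and an unadjusted limma p of 0.0340, which did not pass when adjusted (limma adjusted p = 0.130). For pgr the gap was 1.05 ± 0.64 (SE, limma adjusted p = 0.216), and for cyp19a1b it was 0.58 ± 0.55 (SE, limma adjusted p = 0.374). With one library left out the gap of cyp19a1b ranged from 0.22 to 0.85, and it was 0.22 when dominant pituitary 3 or subordinate pituitary 1 was dropped. That of pgr ranged from 0.73 to 1.47, and that of hsd3b1 from 0.88 to 1.54. Of the 685 genes 4 (0.584%) passed and 227 (33.1%) had an unadjusted p under 0.05, a background raised by the selection of the pituitary genes. The tissues were not shown to differ for any of the 3 genes.

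Replicate numbers name libraries within a tissue and were not read across tissues, except in an alternative fit given at the end. Among the dominant pituitaries, number 1 was the lowest for all 3 genes. Among the 6 brains, the highest value was that of a dominant male for cyp19a1b and of a subordinate male for pgr and hsd3b1.

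**Figure D3:**
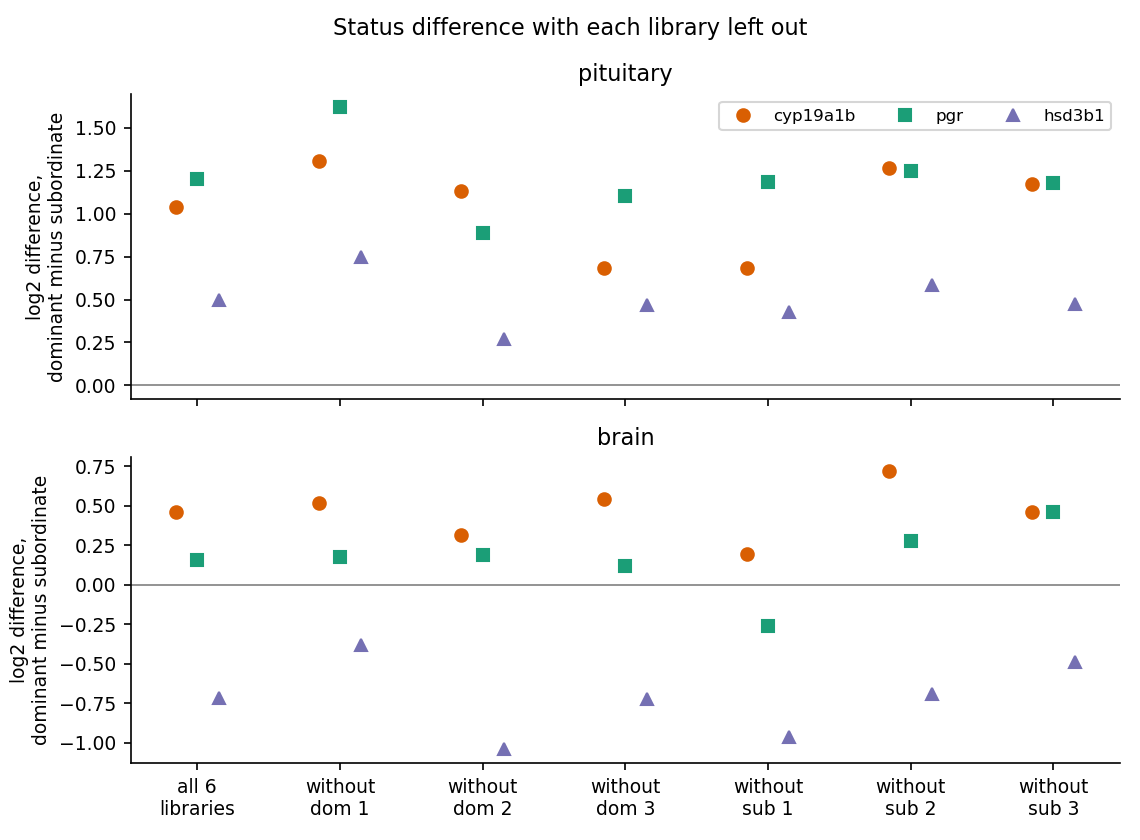
Log2 difference of dominant minus subordinate males (vertical axes) for the 3 genes with all 6 libraries and with each library left out in turn, in the pituitary (upper) and the brain (lower). In the pituitary every point lies above 0, from 0.27 to 1.62, and in the brain hsd3b1 stays below 0, cyp19a1b above 0, and pgr crosses 0 without subordinate replicate 1.

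In the brain 0 genes of steroid synthesis passed the test, and most estimates lay near 0. The list of 59 names matched 33 rows by symbol, of which 28 had a mean of at least 10 reads and were tested. Of these 12 were higher and 16 lower in dominant males, and 0 were called by limma, edgeR or DESeq2 (which called 0.386% of all tested genes). The unadjusted limma p was under 0.05 for 1 of the 28, against 5.17% of all tested genes (3.1% with dominant males higher). From the authors' deposited p-values, which call 0.299% of all genes after adjustment, 0 of the list were called. Their median log2 difference was -0.02, beside -0.00435 over all tested genes, and 22 of the 28 lay within 0.2 of 0. Among the 28 tested genes the estimates of hsd3b1 and cyp19a1b were the lowest and the highest. The steroid hydroxylase gene cyp17a2, under the minimum mean and not tested, had 10.4, 11.3 and 14.7 reads in dominant brains. It had 6.37, 8.31 and 8.05 in subordinate brains, without overlap. Counting error at so few reads was not assessed for cyp17a2, and the shares of tested genes do not cover it. Of the 28 tested genes 2 did not overlap between groups, beside 10.8% of all tested brain genes. These were cyb5r3 and hsd17b14, both with higher values in dominant brains.

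Ordered along the pathway, the tested genes of cholesterol delivery stood at 0.03 for stard3 and 0.11 for tspo. The row tspoap1, placed with them by its name and not by a known part in that step, stood at -0.0046. The steroid acute regulatory gene star, which moves cholesterol into mitochondria, averaged 7.76 ± 2.35 reads in dominant and 6.03 ± 4.68 in subordinate brains (SD, n = 3 each) and was not tested. The 6 electron donors ranged from -0.04 to 0.19. The highest of them was cyb5r3, a cytochrome b5 reductase, at 2478 ± 99.4 reads in dominant males and 2176 ± 109 in subordinate males (SD; log2 difference 0.19, limma adjusted p = 0.934). It was the list's 1 gene with an unadjusted limma p under 0.05. The second 3-beta-hydroxysteroid dehydrogenase row, hsd3b7, known in mammals for bile acid synthesis, stood at 187 ± 20.8 reads in dominant and 225 ± 44.7 in subordinate ones (log2 difference -0.25, limma adjusted p = 0.934).

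The 8 tested members of the 17-beta-hydroxysteroid dehydrogenase family, some of which interconvert active and less active sex steroids, ranged from -0.21 to 0.22. Among the more abundant, hsd17b12b stood at 2082 ± 87.6 reads in dominant and 2048 ± 83.9 in subordinate brains, and hsd17b10 at 1122 ± 29.0 and 1142 ± 29.9. The 4 members of the 5-alpha-reductase family, several of which reduce testosterone to dihydrotestosterone, ranged from -0.19 to 0.07. The intervals around these estimates ran from narrow ones, -0.17 to 0.11 for hsd17b10, to wide ones, -0.97 to 0.55 for hsd17b3 and -0.99 to 1.44 for hsd17b7. For cortisol inactivation, hsd11b2 had 285, 265 and 369 reads in dominant and 197, 621 and 563 in subordinate brains, a wide spread that gave a log2 difference of -0.43 with an interval of -1.44 to 0.58.

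Of the 59 names, 3 were among the 714 pituitary genes selected for differing, namely cyp19a1b, hsd3b1 and hsd17b7. The hsd17b7 gene encodes a reductase that acts on sex steroids and in cholesterol synthesis. It had 186, 171 and 205 reads in dominant and 155, 142 and 83.9 in subordinate pituitaries. The groups did not overlap, as in 66% of the 714 genes (38.5% with dominant males higher). The log2 difference was 0.60 ± 0.27 (SE, limma adjusted p = 0.0871). In the brain hsd17b7 was scarce, at 11.5 ± 6.37 reads in dominant and 9.34 ± 3.91 in subordinate males. The other 56 names were not analysed in the pituitary, and their absence from the selected genes does not show that they are not expressed there.

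Among steroid receptors and their partners 0 passed the test in the brain. The list of 46 names matched 30 rows, all of them tested, and 15 were higher and 15 lower in dominant males. Their median log2 difference was 0.0080, beside -0.00435 over all tested genes. None passed by limma or edgeR, which each called 0.0276% of all tested genes, or by DESeq2, which called 0.386%. An unadjusted limma p under 0.05 was found for 1 gene of the 30 rows, beside 5.17% of all tested genes (3.1% with dominant males higher). That gene was pgrmc1, which encodes a membrane-associated progesterone receptor component that binds heme. It had 2566, 2499 and 2203 reads in brains of dominant males, against 1862, 1939 and 2148 in those of subordinate males. All 3 dominant values lay above the subordinate ones, and groups did not overlap in 10.8% of tested brain genes (5.46% with dominant males higher). The log2 difference was 0.29 ± 0.09 (SE, limma adjusted p = 0.902).

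The 8 rows of nuclear steroid receptors ranged from -0.35 to 0.16, and pgr had the highest estimate among them. That rank was not stable, since pgr had 7 to 19 sequenced reads per library. Its estimate was 0.05 by DESeq2 and -0.26 without subordinate replicate 1, beside a main estimate of 0.11 for nr3c2. The estrogen receptor esr1, a receptor for the product of aromatase, had 226, 586 and 224 reads in dominant and 239.5, 317 and 686 in subordinate brains. Its high libraries were dominant male 2 and subordinate male 3, so it varied within status more than between, with a log2 difference of -0.27 and an interval of -1.45 to 0.91. The androgen receptor row ar stood at 10.7 ± 4.24 reads in dominant and 11.4 ± 1.22 in subordinate brains. The mineralocorticoid receptor nr3c2 stood at 1718 ± 230 and 1590.3 ± 158.

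Among membrane receptors, paqr6 stood at 7320.0 ± 361 reads in dominant and 6950 ± 512 in subordinate brains, and paqr7b at 3672 ± 215 in dominant and 3826 ± 170.1 in subordinate ones. Both encode membrane progestin receptors. Of the 30 receptor rows 4 did not overlap between groups, beside 10.8% of all tested brain genes. These were pgrmc1, gper1 and greb1 with higher and esrra with lower values in dominant brains. The orphan receptor esrra stood at 725 ± 18.8 reads in dominant and 782 ± 42.1 in subordinate ones (log2 difference -0.11). The membrane estrogen receptor gper1 did not overlap between groups, at 56.4 ± 4.20 reads in dominant and 44.1 ± 5.89 in subordinate ones (log2 difference 0.35, limma adjusted p = 0.934). The estrogen-responsive gene greb1 also did not overlap, at 62.6 ± 3.47 and 48.4 ± 8.12 reads (log2 difference 0.38, limma adjusted p = 0.934). Of the receptor chaperones, hsp90ab1 had 25678 ± 831 reads in dominant and 25024 ± 1976 in subordinate brains and fkbp4 had 2808 ± 79.7 and 2740.3 ± 156. The widest spread was that of fkbp5, a chaperone induced by glucocorticoids, with 640, 1549 and 3450 reads in dominant and 552, 6392 and 4212 in subordinate brains. Its values differed more within than between the groups (log2 difference -0.71, interval -3.06 to 1.65).

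**Figure D4:**
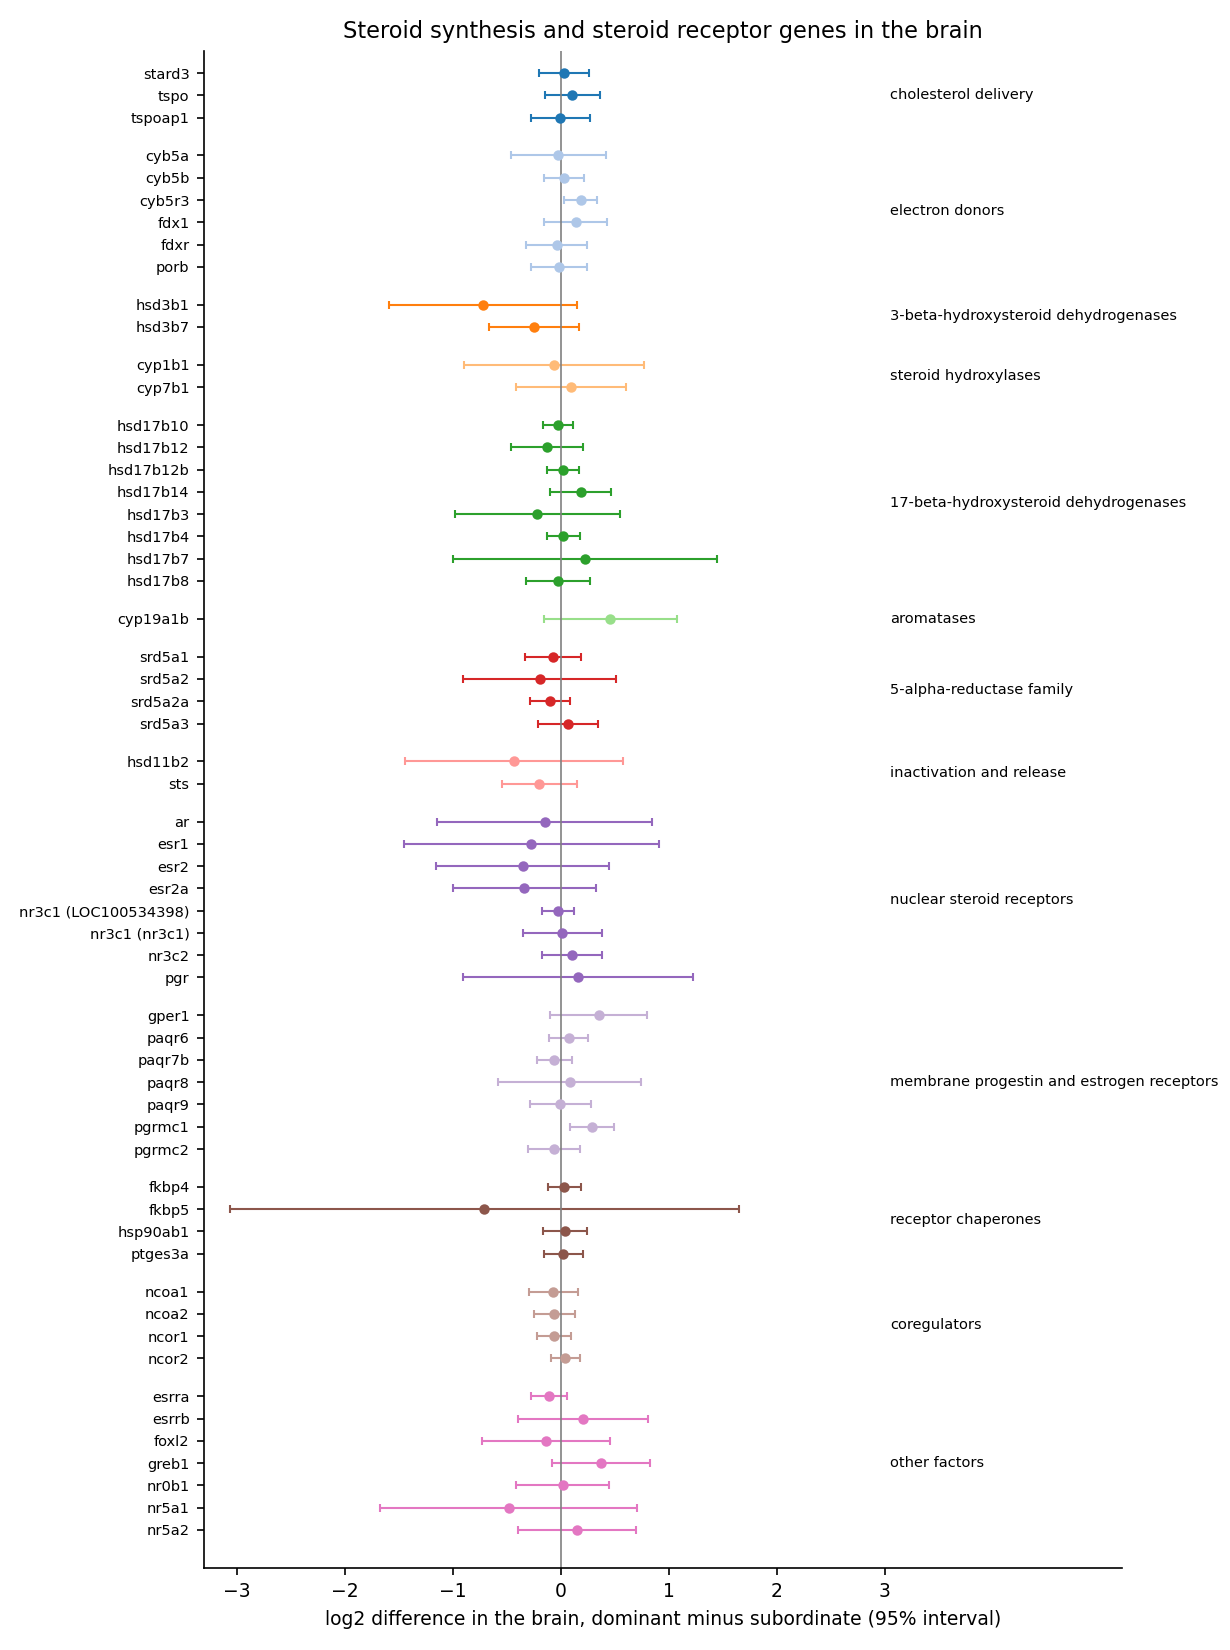
Log2 difference of dominant minus subordinate brains (horizontal axis) for the tested genes of steroid synthesis and steroid receptors, grouped by role from cholesterol delivery to coregulators, with 95% limma intervals. Most points lie near 0; hsd3b1 at -0.72 and cyp19a1b at 0.46 stand at the ends of the synthesis genes, and fkbp5 has the widest interval.

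Markers of the cells and regions that a brain sample may hold were read beside these values. Of 31 radial glia markers 16 were measured, 11 higher and 5 lower in dominant males with a median of 0.06 and 0 called. An unadjusted limma p under 0.05 was found for 3 of the 16, beside 5.17% of all tested brain genes (3.1% with dominant males higher). These were s100b, gfap and fabp7a, which all had higher means in dominant brains and did not overlap between groups. The groups also did not overlap for hes1, which was lower in dominant brains, making 4 of the 16, beside 10.8% of all tested brain genes. The summed reads of the 16 markers were 202672 to 235176 in dominant and 171967 to 208498 in subordinate brains. They were lowest in subordinate male 1 and highest in dominant male 2, the same libraries that were lowest and highest for cyp19a1b. The most abundant of them were s100b (79620.0 ± 4389 in dominant and 65074 ± 7460 in subordinate brains), slc1a2 (53464 ± 3876 and 52788 ± 8342) and gfap (20179 ± 3339 and 14396 ± 993). The part of radial glia in the cyp19a1b difference was not tested.

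The 10 pituitary hormones and factors measured of 19 listed summed to 10403 to 15038 reads in dominant and 13899 to 29604 in subordinate brains, with 0 of 9 tested higher in dominant males and 0 called. Subordinate male 3 held the 29604 reads and was also highest for hsd3b1 and pgr. Without that library the log2 difference was -0.49 for hsd3b1 and 0.46 for pgr. Hox genes of groups 5 to 13 mark hindbrain and spinal cord. The 15 rows named as such summed to 1071 to 1898 reads in dominant and 70.6 to 811 in subordinate brains. This list was drawn from the row names, so it does not show how many such genes are missing. The 11 tested of these were higher in dominant brains, and 0 were called.

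The 21 measured of 32 markers of preoptic area, hypothalamus and telencephalon summed to 17966 to 29929 reads in dominant and 14479 to 31044 in subordinate brains, with 9 higher and 12 lower. Of 16 gonad or interrenal markers 7 were measured, with 255 to 334 reads in dominant and 282 to 311 in subordinate brains, the interrenal corticotropin receptor mc2r having 0 to 6.59 reads. Of 25 markers of other cell types 15 were measured, summing to 83521 to 89563 reads in dominant and 55354 to 91524 in subordinate brains, led by mpz, elavl3 and alas2. No listed marker matched in the brain table was at 0 in all libraries. The part of tissue composition in the brain values of hsd3b1, cyp19a1b and pgr was not tested.

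Brain profiles over the 6 libraries were compared by the root mean square distance between log2 values centred on their own mean, over 14942 other named genes with a mean of at least 10 reads. The nearest to cyp19a1b were bhmt, a homocysteine methyltransferase, at a distance of 0.11, the hydrolase gene cmbl (0.12), the growth arrest gene gas1b (0.12) and lyrm5b (0.13), where the median distance was 0.43. The bhmt transcript had 5240.0, 8653 and 5600.0 reads in dominant and 3281, 6189.7 and 4994 in subordinate brains. Nearest to pgr were nat16, an acetyltransferase (0.09), slc15a2, a peptide transporter (0.10), pdgfaa, a growth factor (0.11), and tubb1, a tubulin (0.12), with a median distance of 0.46. The pgr profile rests on 7 to 19 sequenced reads per library, and the part of counting error in distances from pgr was not tested. The nearest to hsd3b1 were further off, at 0.20 for the homeobox gene alx4a, 0.21 for syt5a, a synaptotagmin, 0.21 for fmoda, a fibromodulin of the matrix, and 0.22 for kit, a receptor tyrosine kinase. The median distance from hsd3b1 was also larger, at 0.60.

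The distances between the 3 genes themselves lay on both sides of those medians. In the brain the distance was 0.38 between cyp19a1b and pgr, 0.61 between pgr and hsd3b1, and 0.70 between cyp19a1b and hsd3b1. Of the named brain genes 9.17% were nearer to pgr than cyp19a1b was, and 18.4% were nearer to cyp19a1b than pgr was. In the pituitary, over 540 other named genes, it was 0.39 between pgr and hsd3b1, 0.54 between cyp19a1b and pgr, and 0.55 between cyp19a1b and hsd3b1, a comparison added after the data were seen. The median distance there was 0.87 from pgr, 0.85 from cyp19a1b and 0.54 from hsd3b1. Of the named pituitary genes 3.51% were nearer to pgr than hsd3b1 was, and 24.8% were nearer to hsd3b1 than pgr was. For cyp19a1b, 11.5% were nearer to it than pgr was and 11.8% were nearer than hsd3b1 was. Each of these shares, in both tissues, counts the gene itself among the nearer genes and in the total. Nearest in the pituitary were klhl5, a kelch protein, to pgr (0.23), and the row zgc:64051 to cyp19a1b (0.19). The gene igfbp4, whose product binds insulin-like growth factors, was among the 4 nearest to both hsd3b1 (0.17) and pgr (0.30). Libraries of a table share its normalisation, and all genes of the pituitary table were selected on the same contrast, so these distances describe the libraries and carry no test.

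**Figure D5:**
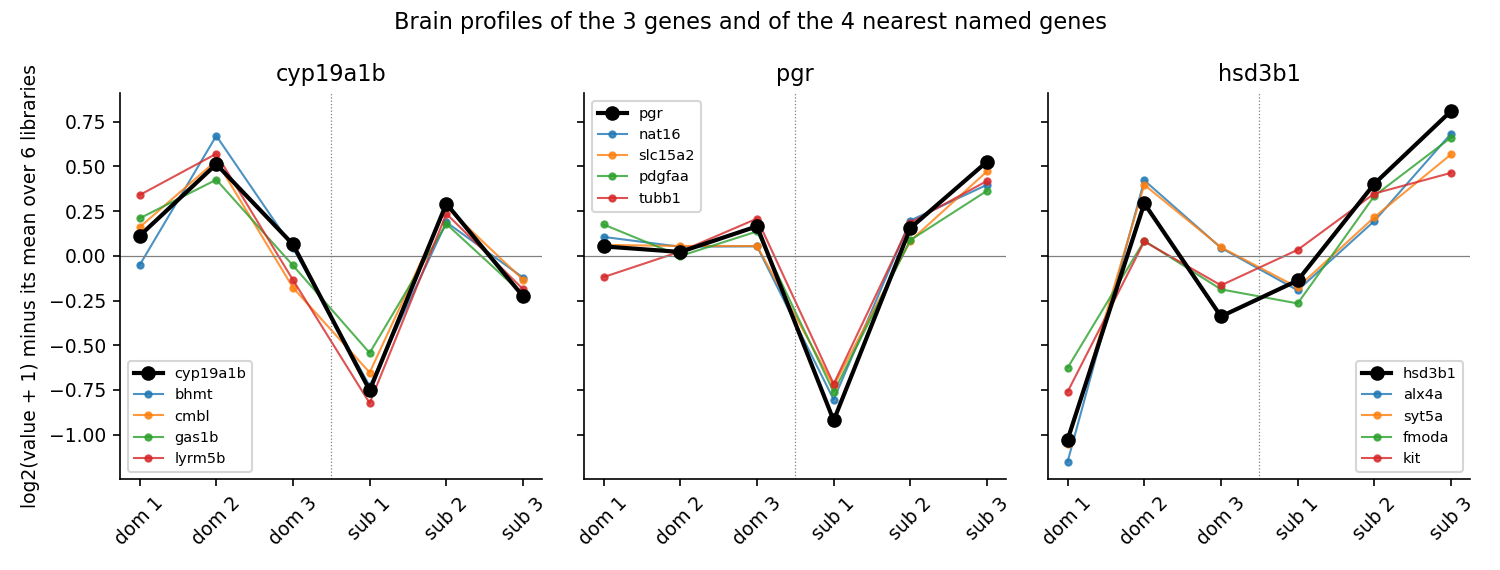
Centred log2(value + 1) (vertical axis) over the 6 brain libraries, dominant left and subordinate right of the dotted line, for cyp19a1b, pgr and hsd3b1 (black) and the 4 named genes nearest to each (coloured). The profiles of cyp19a1b and pgr have their lowest point in subordinate male 1, and that of hsd3b1 in dominant male 1.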

How the data were processed

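The members and gene lists were chosen with earlier results of these data known. Samples were grouped by the tissue and status in the labels. Per the submitters' processing notes, DESeq, DESeq2, HTSeq, STAR 2.201, Trim Galore and FastQC 0.11.4 were used; the sources used here give no genome build, annotation or strand setting, so no positions or sequences are printed. By their file headers and names the deposited signal values are read counts after normalisation, and that library counts were divided by size factors (0.956 to 1.10 in the brain, 0.801 to 1.52 in the pituitary) is inferred from the values, since 100% of values were whole read numbers, within 0.01 reads, of 1 unit per library. The log2 fold changes and the unadjusted p-values deposited by the authors compare dominant with subordinate males. There were 251 blank brain lines left out and 0 columns of values not used. RefSeq (assembly O_niloticus_UMD_NMBU) held 17128 of the 17130 LOC identifiers of the brain table and 368 of the 368 of the pituitary table, and symbols alone were matched to lists.

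The main test was limma 3.58.1 (R 4.3.3) fitted to log2(value + 1) for genes averaging 10 reads or more, with an intensity trend in the empirical Bayes step, called at a Benjamini-Hochberg adjusted p under 0.05. An exact permutation test of 3 against 3 cannot give a p under 0.1. The test was tried on simulated data. Alternatives were pseudocounts of 0.5 and 5, no filter or a minimum mean of 50, quantile or TMM rescaling, and robust limma. Others were leaving out each replicate, a block for the replicate number, and adjustment of the authors' p-values. Lastly, edgeR 4.0.16 and DESeq2 1.42.0 were run on recovered reads with the inferred size factors. Named genes were the 3 members and, per list, called genes, genes with an unadjusted p under 0.05 and the 10 most abundant, with the 4 nearest by profile in the brain and up to 3 per marker list. Further list genes (star, cyp17a2, hsd3b7, hsd17b3, hsd17b14, hsd11b2, esr1, ar, gper1, greb1, esrra) and 2 radial glia markers (fabp7a, hes1) were named after their values were seen. Replicates of a group differed by more than sampling noise in their counts. Figures were drawn with matplotlib 3.10.9. One profile result in the pituitary is not reported here.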

Additional observations from a re-analysis of the deposited data

How the results depend on the processing

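Of the 3 genes in each tissue, none was called by limma under any alternative run with it, and directions were kept in every case except pgr in the brain. That difference was -0.26 to 0.46 with one library left out, negative only without subordinate replicate 1, and the filter of a mean of at least 50 reads left no value for it. With one library left out, cyp19a1b ranged from 0.68 to 1.31 in the pituitary and 0.20 to 0.72 in the brain, hsd3b1 from 0.27 to 0.75 and -1.04 to -0.38, and pgr from 0.89 to 1.62 in the pituitary. In the pituitary DESeq2 called cyp19a1b (1.06) and pgr (1.35), 1 gene of the synthesis list and 1 of the receptor list. Adjusting the authors' deposited p-values called cyp19a1b (1.06), pgr (1.35) and hsd3b1 (0.54), 3 and 1 genes of these lists, and all 714 genes, which follows from a table that holds only p-values under 0.05. Quantile rescaling gave a median over all pituitary genes of 0.11 in place of 0.37, and gave 0.77 for pgr.

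Called genes numbered 6 in the brain by limma, and 84 by DESeq2, 81 from the authors' p-values, and 1 to 15 with one library left out. In the pituitary there were 184 by DESeq2, and 0 to 255 with one library left out. For the difference between tissues there were 4, and 2 to 224 with one library left out (224 without subordinate pituitary replicate 1), 0 with pituitary minus brain values of the same number. The cause of these shifts was not tested. With the replicate number as a block, 1 brain gene and 2 genes of the difference between tissues were called, and none of the 3 genes. The block lowered the unadjusted limma p of cyp19a1b to 0.0247 in the brain and 0.00833 in the pituitary. That of hsd3b1 fell to 0.0240 and 0.0497, and that of pgr did not fall. Deviations of same-numbered libraries correlated at -0.03 to 0.09 for brains and at -0.05 to 0.15 for pituitaries. Those of different numbers correlated at -0.07 to 0.09 and at -0.23 to 0.21, so this check cannot decide on pairing. The labels do not state pairs, and the numbers were not taken as pairs. The values of 20 other named list genes moved by less than the spread between replicates under 340 of 340 alternatives. This count is a weak check, since the filters, the block and robust limma leave an estimate unchanged. Estimates near 0 could also change sign under it, as tspoap1 in the brain did, from -0.0046 to 0.0031 with TMM rescaling. A gene with a wide spread between replicates could move far and still count as unmoved. The log2 difference of fkbp5 in the brain, -0.71 with all libraries, reached an absolute value of 1.78 without subordinate replicate 1. Of the 20 genes 1, hsd17b7 in the pituitary, was called, by adjusting the authors' deposited p-values.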
